A study of Mus musculus with 12 samples.

Results

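The difference between INT-747 and nicotinamide riboside (NR) that Tg26 and wild-type (WT) kidneys have in common was measured in all 12 mice of the series, the 6 that received INT-747 against the 6 that received NR. INT-747 is obeticholic acid, a semisynthetic bile acid that activates the nuclear receptor FXR, and NR is a vitamin B3 form from which cells make NAD. The Tg26 transgene is an HIV provirus that cannot replicate, and mice that carry it develop kidney disease resembling HIV-associated nephropathy. WT mice do not carry it. The 4 groups were Tg26 mice given INT-747, Tg26 mice given NR, WT mice given INT-747 and WT mice given NR, with 3 mice in each. All were 12 weeks old, and the outer kidney cortex was taken for stranded mRNA sequencing. The sources used here state no dose, duration, sex or strain. No mice without either compound were analysed here, so each value below is a difference between the compounds, and which of them moved a gene cannot be told apart.

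Some background helps in reading the genes. FXR is the receptor through which cells sense bile acids, and it is expressed in kidney tubule. PPARα is the nuclear receptor that switches on genes of fatty acid oxidation. Cholesterol is built from acetyl-CoA through the mevalonate pathway and then a set of late sterol enzymes, and the genes of both stages are switched on together by SREBP2, usually with the CCAAT-binding factor NF-Y at the same promoters. Proximal tubule cells make up most of the cortex and take most of their energy from fatty acids.

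Total counts per library were 22286343 to 28952177, and mitochondrially encoded genes took 7.90% to 9.91% of them. Summed proximal tubule markers reached 22090 to 53600 CPM (counts scaled to library size) in the 12 libraries, and summed muscle markers at most 2.68 CPM. The proximal tubule sums were 42330 to 53600 CPM in Tg26 mice given INT-747 and 22090 to 44390 CPM in Tg26 mice given NR. In WT mice they were 38860 to 52180 CPM under INT-747 and 39470 to 52560 CPM under NR. In 11 libraries Xist and genes of the Y chromosome had the pattern of males; the library of the third Tg26 mouse given NR had that of a female. Clock genes varied too. A clock score, the mean log2 CPM of genes of 1 phase minus that of the opposite phase, was 2.45 to 3.17 in Tg26 mice given INT-747, 0.576 to 3.57 in Tg26 mice given NR, −0.192 to 0.663 in WT mice given INT-747 and −0.608 to 3.25 in WT mice given NR. The labels do not say that same-numbered libraries of different groups came from related mice.

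Counts were fitted with edgeR's quasi-likelihood model with genotype as an additive term. A gene is called when its Benjamini-Hochberg adjusted p from this test was under 0.05 over all 15708 genes tested. Of these, 19 were called (0.121%), 11 higher under INT-747 (0.0700%) and 8 lower (0.0509%), and 8 of the 19 differed at least 2-fold. All 19 had the same sign in Tg26 and in WT mice, which calling by a common difference favours. In all 19, the 3 mice given INT-747 and the 3 given NR did not overlap within either genotype, on the same side in both. Calling from these same values favours such a separation, so it adds no separate support. Over all genes tested, the treatments did not overlap in 28.0% in Tg26 mice and in 12.9% in WT mice, and 318 (2.02%) separated to the same side in both, 153 of them higher under INT-747 (0.974%) and 165 lower (1.05%), while 156 (0.993%) separated to opposite sides in the genotypes. An unadjusted p under 0.05 was reached by 2292 genes (14.6%). In bulk tissue, fewer cells of a type and less RNA per cell cannot be told apart, here and below.

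The count of called genes depended on single libraries. It was 3 to 69 when each library was left out in turn and 33 without the female-pattern library, 17 of the 19 among them. Without the second Tg26 mouse given INT-747, or without the second Tg26 mouse given NR, 3 of the 19 were still called. With the clock score as a covariate 200 genes were called, all 19 among them, and with DESeq2 385, 18 of the 19 among them.

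**Figure D1:**
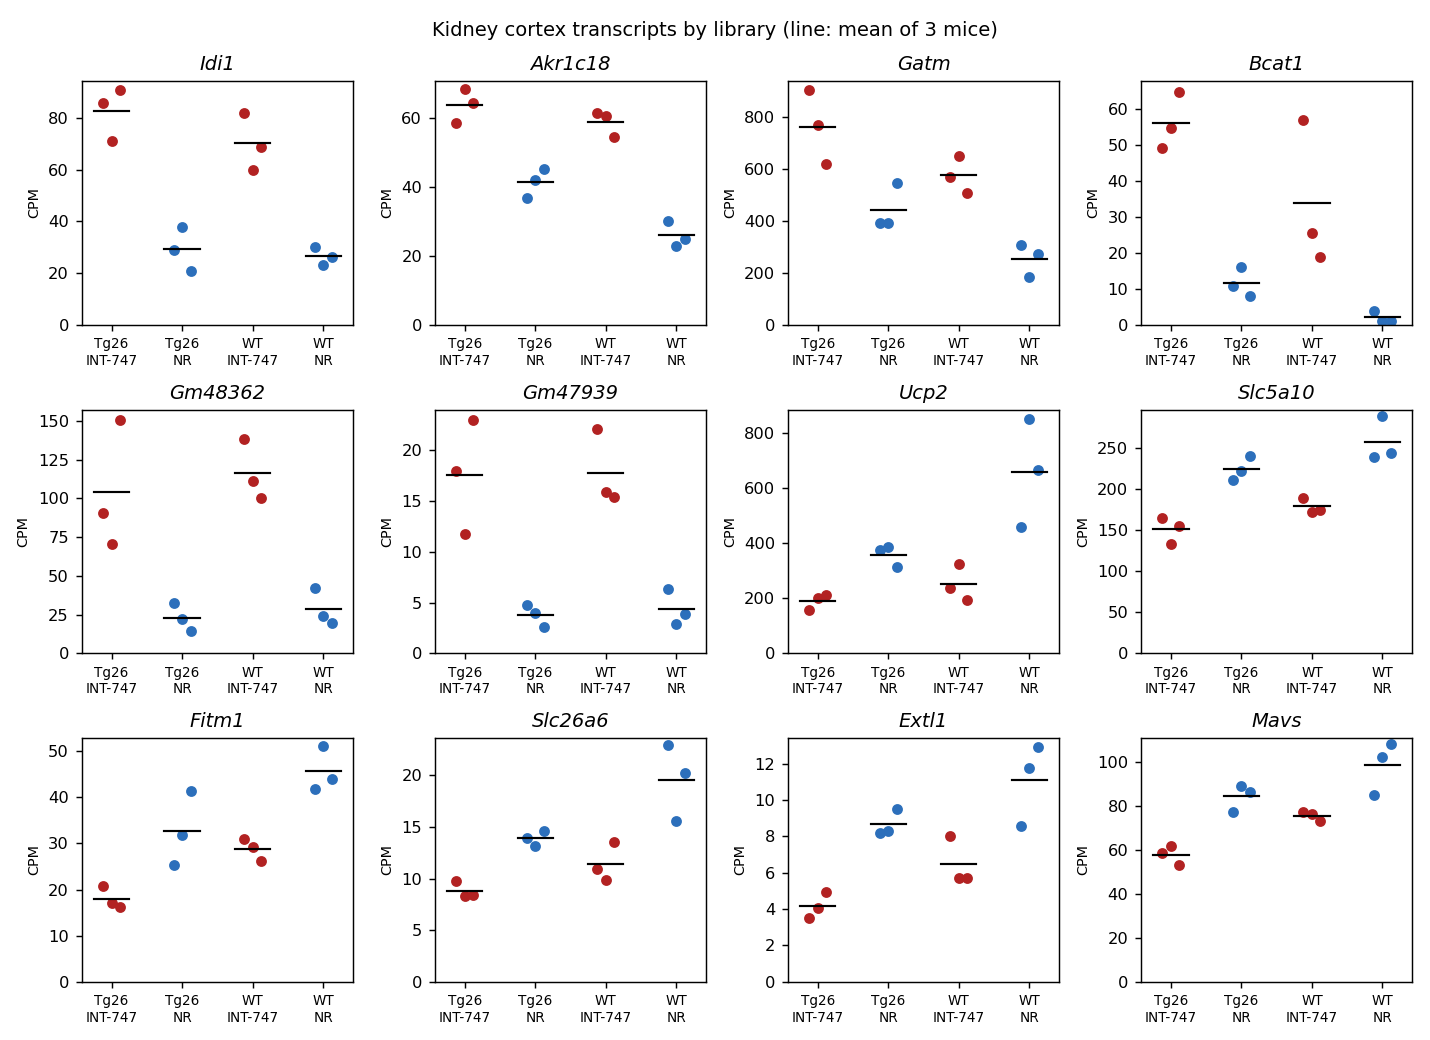
Expression of 12 of the called genes in each of the 12 libraries, in CPM on a linear axis from 0. Each point is a mouse, the horizontal line is the mean of 3, and within each genotype INT-747 stands left of NR. Idi1, Akr1c18, Gatm, Bcat1 and the long noncoding RNAs Gm48362 and Gm47939 were higher under INT-747 in both genotypes, and Ucp2, Slc5a10, Fitm1, Slc26a6, Extl1 and Mavs were lower.

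The gene with the smallest p was Idi1, the isopentenyl-diphosphate isomerase of the mevalonate pathway (ENSMUSG00000058258.14, mm10 chromosome 13, 8885501 to 8892451). Idi1 stood at 85.8, 71.0 and 90.7 CPM in Tg26 mice given INT-747, against 29.0, 37.8 and 20.7 CPM in Tg26 mice given NR. In WT mice Idi1 stood at 82.0, 59.7 and 68.8 CPM under INT-747, against 30.2, 23.2 and 26.3 CPM under NR. The lowest of the 6 values under INT-747, 59.7 CPM, lay above the highest under NR, 37.8 CPM, whatever the genotype. Idi1 rose by a log2 difference of 1.45 (SE 0.14, edgeR adjusted p = 0.00257), with 1.50 in Tg26 and 1.40 in WT mice (interaction unadjusted p = 0.724). It was past the threshold in 25 of 25 alternative analyses.

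NF-Y boxes mark most promoters of this pathway, and 30 bases around the box nearest the start are shown for the 6 cholesterol genes of smallest p, 3 from each stage, that have a box in the reference table. The sequences are RefSeq promoters of build GRCm38.p6, read 5′ to 3′ on the strand of the gene, with the box in capitals as CCAAT or its reverse complement ATTGG. Idi1 (chr13:8885576-8885605, plus strand), Hmgcs1 (chr13:119690293-119690322, plus), Mvk (chr5:114444239-114444268, plus), Msmo1 (chr8:64733617-64733646, minus), Lbr (chr1:181842413-181842442, minus) and Cyp51 (chr5:4104710-4104739, minus) read as follows.
Idi1: catggtccaaggtgccATTGGctggcgacc
Hmgcs1: gtccccgcctctcATTGGctgaaagcggat
Mvk: tagctccagctctctgATTGGcctcaggaa
Msmo1: ggagtggggcggaCCAATtacgacaggcga
Lbr: aaaggtcgagggaCCAATggggagctcagg
Cyp51: ccgctgtccgccaCCAATctggtcctgaga

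CCAAT, searched on both strands in the 250 bases before the start, was found in 7 of the 8 mevalonate promoters and 8 of the 9 late-stage promoters in the reference table, out of 12 and 10 genes tested. Of all 32851 promoters searched, 33.8% held it. The other lists examined also lay above that share. CCAAT was in 13 of 26 fatty acid oxidation promoters and 6 of 10 promoters of sterol control and transport. It was also in 5 of 11 FXR and bile acid promoters and in 12 of 22 promoters of the named genes. The sterol response element TCACNCCAC was in 1.05% of all promoters and, among the genes examined here, in Hmgcs1, Ucp2 and Ehhadh, a peroxisomal enzyme of fatty acid oxidation. The FXR element AGGTCANTGACCT, an inverted repeat, was in 0.00609% of all promoters and the PPAR element AGGTCANAGGTCA, a direct repeat, in 0.0335%; neither was in the promoters of the cholesterol, fatty acid oxidation or bile acid genes or of the 22 of 29 named genes matched. A match is a run of letters and not evidence of binding, and its absence says only that these letters are not in this window.

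Beyond Idi1, the other enzymes of cholesterol synthesis lay mostly on the same side with smaller differences. Of 22 enzymes tested, 20 had a positive log2 difference (46.9% of all genes did), 14 were higher under INT-747 in both genotypes (63.6%, against 22.2% of all genes tested) and none was lower in both. The median log2 difference of the 22 was 0.26, against −0.02 over all genes, and 9 had an unadjusted p under 0.05 in the positive direction (all genes 7.29%). Only Idi1 was called. The enzymes were listed with earlier results of these data known, so the counts describe the group and are not a test of it.

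All 12 mevalonate enzymes had a positive difference. Squalene epoxidase, encoded by Sqle, stood at 44.9, 50.8 and 55.3 CPM in Tg26 mice given INT-747 and 41.7, 36.8 and 21.2 CPM in Tg26 mice given NR. In WT mice Sqle stood at 50.2, 36.6 and 43.8 CPM under INT-747 and 34.7, 25.4 and 35.0 CPM under NR. Sqle separated within each genotype, with a log2 difference of 0.53 (SE 0.15, adjusted p = 0.194). Hmgcs1, the cytosolic HMG-CoA synthase, rose in Tg26 mice (log2 1.04, edgeR adjusted p = 0.0228 for that contrast) and had a log2 difference of 0.04 in WT mice (interaction unadjusted p = 0.00144, adjusted p = 0.229). Its values were 839, 748 and 886 CPM in Tg26 mice given INT-747 and 372, 502 and 330 CPM in Tg26 mice given NR, but 523, 469 and 562 CPM in WT mice given INT-747 and 604, 414 and 499 CPM in WT mice given NR. Mvk, the mevalonate kinase, and Fdps, the farnesyl diphosphate synthase, differed more in WT mice, with 0.27 in Tg26 and 0.91 in WT mice for Mvk and 0.15 in Tg26 and 0.50 in WT mice for Fdps.

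Of the 10 late sterol enzymes, 8 had a positive difference and 6 were higher in both genotypes. Msmo1, the methylsterol monooxygenase, was nearest to the threshold and even across genotypes, with a log2 difference of 0.48 (SE 0.09, edgeR adjusted p = 0.0781), 0.53 in Tg26 and 0.44 in WT mice. Msmo1 stood at 19.2, 18.1 and 21.2 CPM in Tg26 mice given INT-747, against 13.1, 14.8 and 12.7 CPM in Tg26 mice given NR. In WT mice it stood at 19.5, 13.5 and 17.4 CPM under INT-747, against 11.8, 11.7 and 13.6 CPM under NR, and the lowest value under INT-747 lay just below the highest under NR. Dhcr7, which makes cholesterol from 7-dehydrocholesterol, had 1.22 in Tg26 and 0.29 in WT mice, and Cyp51, the lanosterol demethylase, 1.21 in Tg26 and 0.19 in WT mice.

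**Figure D2:**
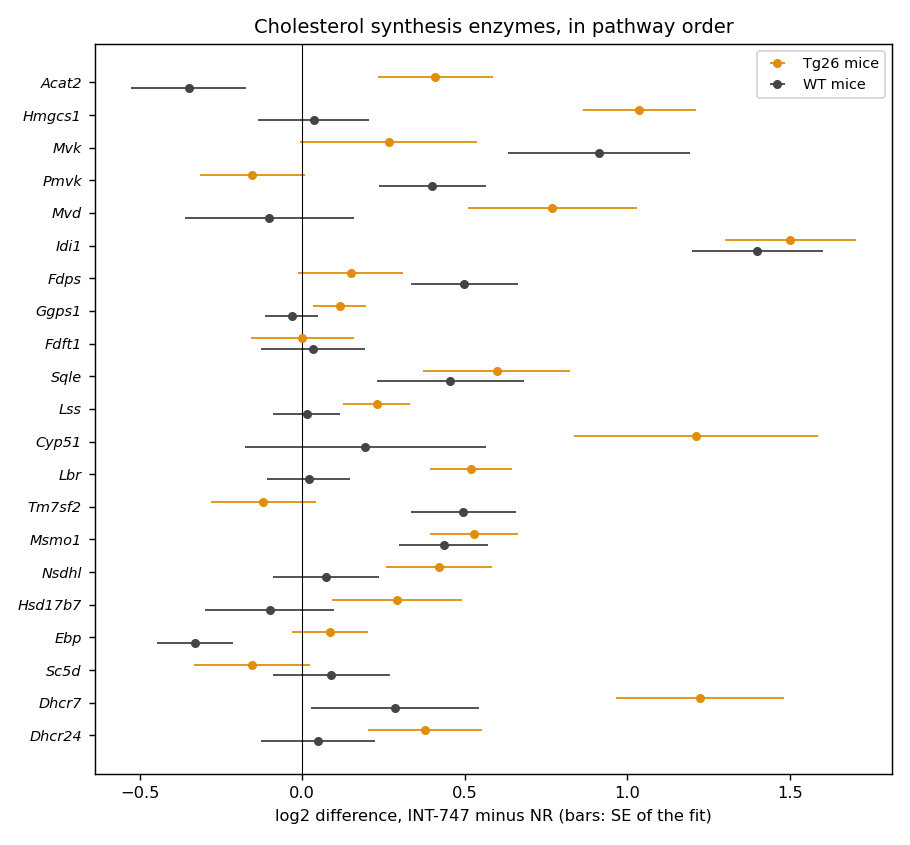
Log2 difference, INT-747 minus NR, of 21 tested enzymes of cholesterol synthesis, in Tg26 mice and in WT mice, with bars of 1 standard error from the edgeR fit. Idi1 had nearly the same difference in both genotypes (1.50 in Tg26 and 1.40 in WT mice), whereas Hmgcs1, Dhcr7 and Cyp51 had a larger one in Tg26 mice.

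The 16 tested genes of sterol control and transport went both ways, 10 with a positive and 6 with a negative difference, 5 higher and 4 lower in both genotypes, with a median of 0.06. None was called. Abca1, which exports cholesterol and phospholipid, stood at 16.7, 20.7 and 13.8 CPM in Tg26 mice given INT-747, against 48.8, 36.4 and 26.3 CPM in Tg26 mice given NR. Abca1 stood at 15.7, 15.8 and 16.3 CPM in WT mice given INT-747, against 30.7, 20.8 and 17.1 CPM in WT mice given NR. The mice given INT-747 lay below those given NR within both genotypes, and the additive log2 difference was −0.82 (SE 0.19, adjusted p = 0.125). Scarb1, the HDL receptor, had −0.54 (adjusted p = 0.122) and Abcg1, another sterol exporter, −0.42. Srebf2, which encodes SREBP2, had 0.17 with no overlap in either genotype (adjusted p = 0.248). Among 19 lipogenic genes, none was called; Acly, which supplies cytosolic acetyl-CoA, had 0.45 (0.57 in Tg26 and 0.32 in WT mice, adjusted p = 0.111), Acss2, another acetyl-CoA source, 0.43, and Fasn, the fatty acid synthase, 0.37.

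Other enzymes that rose act on steroids, creatine and amino acids. Akr1c18, which inactivates progesterone, stood at 58.7, 68.5 and 64.5 CPM in Tg26 mice given INT-747, against 36.9, 42.2 and 45.2 CPM in Tg26 mice given NR. In WT mice Akr1c18 stood at 61.5, 60.7 and 54.6 CPM under INT-747, against 30.3, 22.9 and 25.1 CPM under NR. The levels under INT-747 were alike in the genotypes, while those under NR were higher in every Tg26 mouse than in any WT mouse. Akr1c18 rose by 0.90 (SE 0.11, adjusted p = 0.0145), with 0.63 in Tg26 and 1.18 in WT mice (interaction unadjusted p = 0.00528, not past the threshold after adjustment). It lies in a cluster of related genes on chromosome 13 (4132615 to 4150654), whose reads the counting could split. The other 5 tested members of the family did not pass: Akr1c14 and Akr1c21 had 0.86 and 0.51, and Akr1c12 had −0.50. In Tg26 mice given NR the female-pattern library was the lowest for both, at 46.8 CPM against 298 and 590 CPM for Akr1c14 and at 55.1 CPM against 191 and 331 CPM for Akr1c21, and its part in these differences was not tested. In WT mice alone Akr1c14 had 0.13.

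Gatm, which makes guanidinoacetate in the first step of creatine synthesis and is abundant in proximal tubule, stood at 904, 769 and 619 CPM in Tg26 mice given INT-747, against 392, 394 and 547 CPM in Tg26 mice given NR. Gatm stood at 570, 651 and 508 CPM in WT mice given INT-747, against 308, 184 and 275 CPM in WT mice given NR. The treatments separated within each genotype, but the WT mouse at 508 CPM lay below the Tg26 mouse given NR at 547 CPM. Gatm rose by 0.98 (SE 0.16, adjusted p = 0.0346). Of the 20 proximal tubule genes tested, it was the only one called; 12 had a positive and 8 a negative difference.

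Bcat1, the cytosolic branched-chain aminotransferase, was the protein-coding gene with the largest rise. Bcat1 stood at 49.2, 54.8 and 64.7 CPM in Tg26 mice given INT-747, against 10.8, 16.03 and 8.15 CPM in Tg26 mice given NR. In WT mice Bcat1 stood at 57.1, 25.5 and 19.01 CPM under INT-747, against 3.95, 1.16 and 1.18 CPM under NR. Under NR each Tg26 mouse was above each WT mouse, and WT mice given INT-747 were spread widely. The log2 difference was 3.04 (SE 0.46, adjusted p = 0.0413), 2.27 in Tg26 and 4.02 in WT mice (interaction unadjusted p = 0.0372). Of 17 genes of branched-chain amino acid metabolism, 8 were higher in both genotypes; the mitochondrial enzymes Dbt and Ivd had 0.24 and 0.30 and were not called.

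Smaller rises were found for Abhd14a, a hydrolase-fold protein that overlaps Abhd14b on the other strand (log2 0.60, adjusted p = 0.0346), Cep126, a centrosomal protein (0.79, adjusted p = 0.0488), and Hps5, a subunit of the lysosome-related organelle complex BLOC-2. Hps5 stood at 104, 102 and 110 CPM in Tg26 mice given INT-747 and 69.6, 78.8 and 71.7 CPM in Tg26 mice given NR, and at 104, 95.3 and 100 CPM in WT mice given INT-747 and 85.9, 79.4 and 84.5 CPM in WT mice given NR. That is a log2 difference of 0.39 (adjusted p = 0.0455), the smallest among the called genes, with 0.52 in Tg26 and 0.26 in WT mice (interaction unadjusted p = 0.0325).

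Long noncoding RNAs of unknown function, listed here although the naming rule left out predicted genes, made up 4 of the 11 that rose. Gm48362 (chromosome 9, 25855315 to 25859652) was the most abundant: 90.7, 70.7 and 151 CPM in Tg26 mice given INT-747 against 32.5, 22.2 and 14.1 CPM in Tg26 mice given NR, and 138, 111 and 100 CPM in WT mice given INT-747 against 42.4, 24.3 and 19.8 CPM in WT mice given NR. The 6 values under INT-747 all lay above the 6 under NR, and Gm48362 rose by 2.10 (SE 0.26, adjusted p = 0.0197). Gm47939 (chromosome 10, 25899279 to 25903916) stood at 17.9, 11.7 and 23.0 CPM in Tg26 mice given INT-747 against 4.76, 3.99 and 2.60 CPM in Tg26 mice given NR, and at 22.1, 15.9 and 15.4 CPM in WT mice given INT-747 against 6.30, 2.90 and 3.88 CPM in WT mice given NR. It rose by 2.12 (SE 0.23, adjusted p = 0.00526), with 2.21 in Tg26 and 2.03 in WT mice, and was past the threshold in 25 of 25 alternative analyses. Gm43549 rose by 2.38 (adjusted p = 0.0346). Gm46349 had few reads, 76 counts in the 6 libraries under INT-747 against 6 under NR. Their ratio, corrected for library size, was 13.6 (95% interval 5.99 to 38.3, counting error only; edgeR adjusted p = 0.0346).

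Among the genes that fell, Ucp2, a carrier of the mitochondrial inner membrane that is linked to fatty acid use, was the most abundant. Ucp2 stood at 158, 203 and 212 CPM in Tg26 mice given INT-747, against 376, 385 and 313 CPM in Tg26 mice given NR. In WT mice Ucp2 stood at 236, 326 and 192 CPM under INT-747, against 458, 852 and 668 CPM under NR. Each genotype separated, and 1 WT mouse given INT-747 overlapped the Tg26 mice given NR. Ucp2 fell by 1.15 on the log2 scale (SE 0.18, adjusted p = 0.0346), by 0.91 in Tg26 and by 1.39 in WT mice.

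Ucp2 overlaps Dnajb13, and Slc5a10 overlaps Grap and Fam83g, each on the other strand. Idi1, Bcat1, Fitm1 and Dzip1 also overlap predicted genes on the other strand, and Bcat1 and Hps5 overlap predicted genes on their own strand. Whether the counting used the strand is not stated, so shared reads are possible. A pair of apical transporters of the tubule fell as well. Slc5a10, a sodium-coupled transporter of mannose and fructose found mainly in kidney, stood at 165, 133 and 156 CPM in Tg26 mice given INT-747 against 211, 222 and 241 CPM in Tg26 mice given NR, and at 189, 172 and 175 CPM in WT mice given INT-747 against 239, 289 and 244 CPM in WT mice given NR. All 6 values under INT-747 lay below all 6 under NR, and the log2 difference was −0.55 (SE 0.08, adjusted p = 0.0259), nearly equal in Tg26 mice (−0.57) and WT mice (−0.52). Slc26a6, an exchanger of chloride, oxalate and other anions, stood at 9.72, 8.34 and 8.36 CPM in Tg26 mice given INT-747 against 13.9, 13.2 and 14.6 CPM in Tg26 mice given NR, and at 10.9, 9.90 and 13.5 CPM in WT mice given INT-747 against 22.9, 15.6 and 20.3 CPM in WT mice given NR. Its log2 difference was −0.72 (SE 0.11, adjusted p = 0.0346), with −0.66 in Tg26 and −0.78 in WT mice.

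Fitm1, which helps form lipid droplets, stood at 20.7, 17.1 and 16.3 CPM in Tg26 mice given INT-747 against 25.3, 31.7 and 41.4 CPM in Tg26 mice given NR, and at 31.0, 29.2 and 26.1 CPM in WT mice given INT-747 against 41.8, 51.1 and 44.0 CPM in WT mice given NR. It fell by 0.76 on the log2 scale (SE 0.12, adjusted p = 0.0346). The others that fell were Mavs, the mitochondrial adaptor of RNA sensing by RIG-I (−0.46, adjusted p = 0.0346), Extl1, a glycosyltransferase of heparan sulfate chains (−0.91, adjusted p = 0.0346), and Dzip1, a cilium protein (−0.82, adjusted p = 0.0480). Dzip1 was the least even of these, with −1.16 in Tg26 and −0.50 in WT mice (interaction unadjusted p = 0.00732).

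Mat1a, the liver form of the enzyme that makes S-adenosylmethionine, was the last gene that fell. It had 1 count in all 6 libraries under INT-747 together and 157 under NR, with 27, 35 and 12 counts in Tg26 mice given NR and 11, 68 and 4 in WT mice given NR. The NR to INT-747 ratio was 146 (95% interval 25.8 to 5790, counting error only; edgeR adjusted p = 0.0346). Other liver transcripts were also lower under INT-747 in the fit. All 7 tested liver genes of the list (among them Alb, Ttr, Apoa2, Ahsg and Serpina3k) had a negative difference in both genotypes, 6 with an unadjusted p under 0.05, and none was called. The summed liver list came to 4.72, 4.71 and 3.83 CPM in Tg26 mice given INT-747 and 15, 31.8 and 22.9 CPM in Tg26 mice given NR, and to 9.68, 11.8 and 7.49 CPM in WT mice given INT-747 and 9.67, 56.8 and 7.06 CPM in WT mice given NR. In WT mice only the second mouse given NR had a sum above those under INT-747. Mat1a and this sum were highest in the same libraries, the second WT mouse given NR and then the second Tg26 mouse given NR. Serpina3k had 0 counts under INT-747 and 175 under NR. The part of liver transcripts in the fall of Mat1a was not tested.

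Among genes just outside the threshold (adjusted p 0.0546 to 0.0585), those with a positive difference were Kcng1, a potassium channel modifier subunit (log2 2.51), Chrdl1, a BMP antagonist (2.08), Tgtp1, an interferon-inducible GTPase with a near-identical neighbour (1.18, uncertain for that reason), the mitochondrial carrier Slc25a45 (0.46) and the lipid transfer protein Osbpl8 (0.34). Those with a negative difference were the fructose bisphosphatase Fbp2 (−0.88), Nkain1 (−0.78), the actin-binding Cotl1 (−0.58), Alkbh6 (−0.56) and the calpain Capn2 (−0.35).

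**Figure D3:**
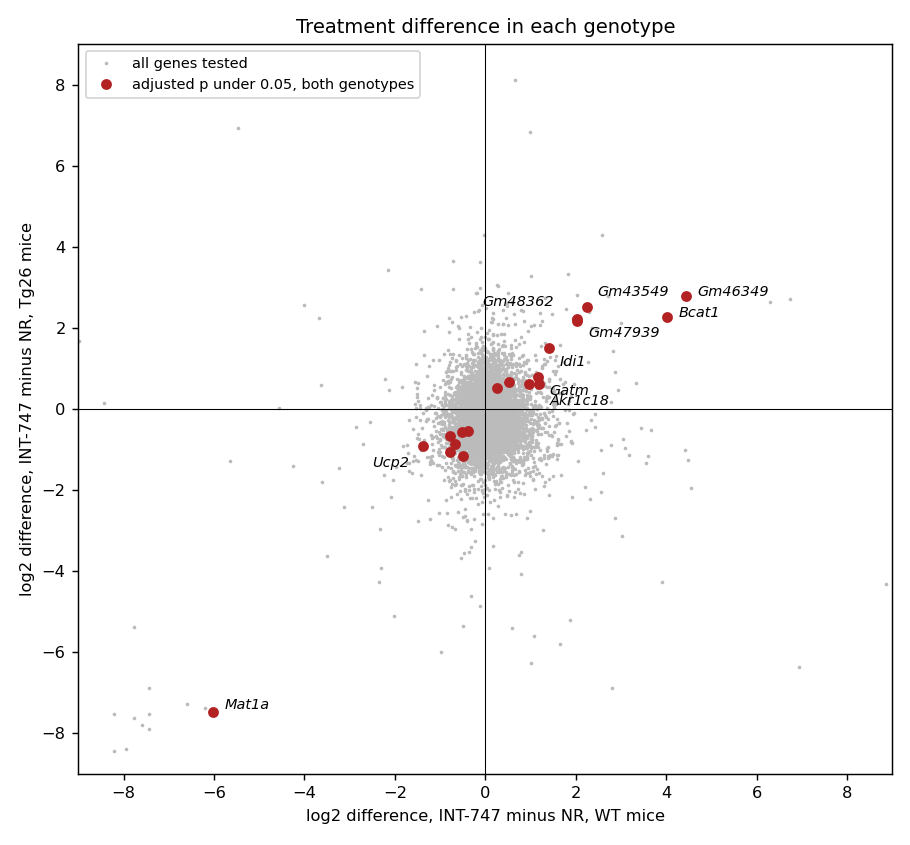
Log2 difference, INT-747 minus NR, of each tested gene in WT mice (x axis) and in Tg26 mice (y axis), with the 19 called genes marked; 1 gene lies beyond the axes. The called genes lie in the quadrants of equal sign, a place that calling by a difference common to both genotypes favours.

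Genes of fatty acid oxidation lay mostly lower under INT-747. Of 34 tested genes of mitochondrial and peroxisomal oxidation, many of them PPARα targets, 29 had a negative log2 difference and 27 were lower in both genotypes (79.4%, against 27.5% of all genes tested). The median was −0.32 (−0.29 in Tg26 and −0.33 in WT mice), against −0.02 over all genes. An unadjusted p under 0.05 in the negative direction was found for 15 (all genes 7.30%) and none was called.

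Eci1, an isomerase of unsaturated fatty acyl-CoA, came nearest (log2 −0.68, SE 0.14, edgeR adjusted p = 0.0852). Eci1 stood at 65.3, 64.9 and 81.4 CPM in Tg26 mice given INT-747 against 98.3, 93.8 and 130 CPM in Tg26 mice given NR, and at 96.5, 122 and 78.2 CPM in WT mice given INT-747 against 141, 213 and 150 CPM in WT mice given NR. The treatments did not overlap within either genotype. The peroxisomal thiolases Acaa1b and Acaa1a had −0.98 and −0.33, and Vnn1, a pantetheinase and PPARα target, had −0.76.

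Some genes of this list varied widely between mice. The fatty acid omega-hydroxylase Cyp4a10 stood at 112, 152 and 266 CPM in Tg26 mice given INT-747 against 724, 296 and 2132 CPM in Tg26 mice given NR, and at 549, 907 and 244 CPM in WT mice given INT-747 against 672, 1690 and 1074 CPM in WT mice given NR. Its log2 difference was −1.79 (SE 0.57, edgeR adjusted p = 0.225); the Tg26 mice separated and the WT mice overlapped. The highest Tg26 value was that of the female-pattern library. The lipid droplet coat gene Plin2 had −0.80. Fabp1, also abundant in liver, had −3.02. The liver sums given above were also lower under INT-747 in Tg26 mice. In WT mice only the second mouse given NR had a sum above those under INT-747. The part of liver transcripts in these values was not tested. Ppara itself had 0.18 and Cpt1a, the entry step of mitochondrial oxidation, −0.09.

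**Figure D4:**
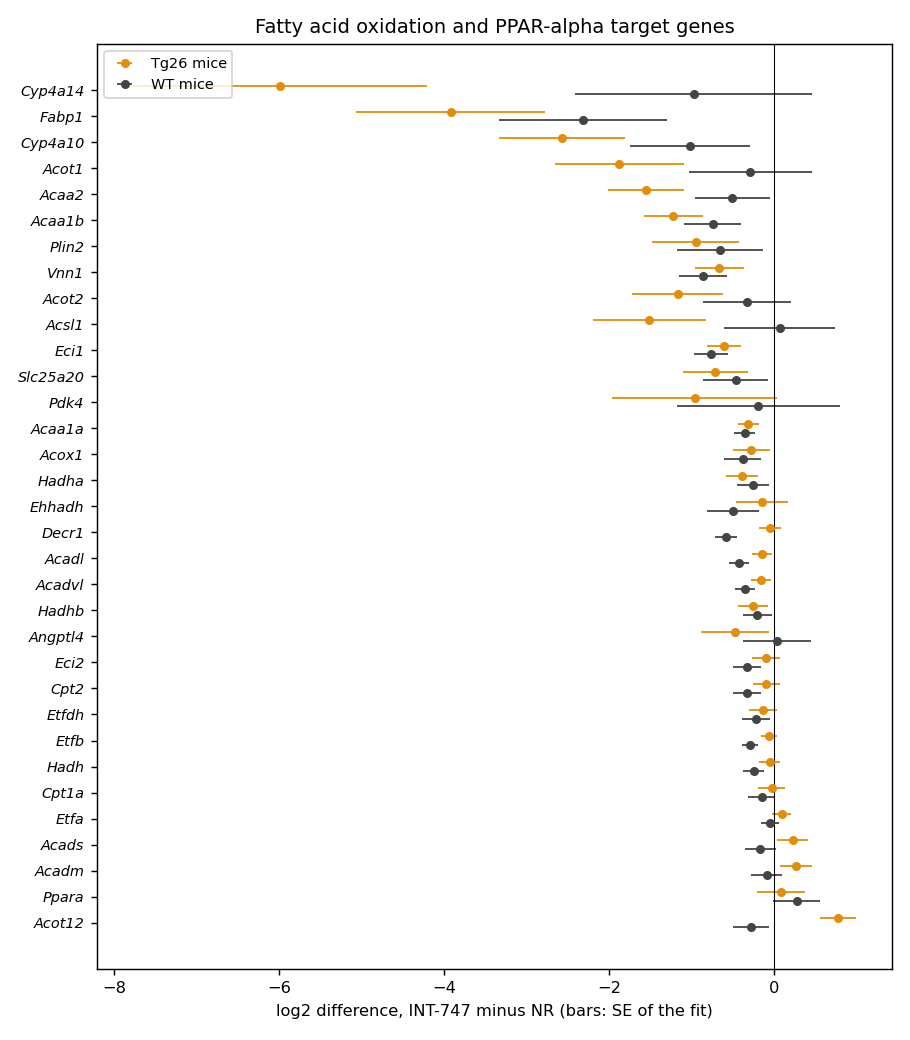
Log2 difference between INT-747 and NR (positive where higher under INT-747) of 33 tested genes of fatty acid oxidation in Tg26 mice and in WT mice, with bars of 1 standard error. Most points lie below 0 in both genotypes, and Cyp4a14 has the widest gap between the genotypes among the genes drawn.

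The pathways the compounds are known to act on gave no called gene in the additive comparison. Among the FXR and bile acid genes, Fgfr4, Slc51a and Nr1h4 rose and Cyp27a1 fell past the threshold in the Tg26 contrast. Among the NAD genes, Pnp, Nadsyn1 and Acmsd rose and Kynu fell past it there. The WT contrast called none of these, and it called only 0.0127% of all genes tested. The additive comparison called 0.121% of all genes. With shares this low, finding none in these lists says little about them. Over all genes tested, the Tg26 contrast had 2.90% past the threshold with a rise and 1.48% with a fall. Whether either list exceeds these shares was not tested. The Tg26 calls also depended on the fit: with only the 6 Tg26 libraries 0 genes passed, and with a sex term 37. Of 24 FXR and bile acid genes, 15 had enough counts to be tested, 5 with a positive and 10 with a negative difference. Nr1h4, which encodes FXR, stood at 292, 272 and 315 CPM in Tg26 mice given INT-747 against 142, 230 and 147 CPM in Tg26 mice given NR, and at 227, 230 and 212 CPM in WT mice given INT-747 against 217, 185 and 215 CPM in WT mice given NR. The Tg26 mice separated and the WT mice overlapped, with log2 differences of 0.76 and 0.12 (additive 0.44, adjusted p = 0.231). The bile acid exporter subunit Slc51a, an FXR target, had 1.0 in Tg26 and 0.22 in WT mice, while its partner Slc51b had −0.32 in Tg26 and 0.19 in WT mice. Nr0b2, the FXR-induced repressor SHP, had −0.12 in Tg26 and 0.82 in WT mice. Fgfr4, the FGF15 receptor, had a positive difference in both, 0.58 in Tg26 and 0.28 in WT mice (additive 0.43, adjusted p = 0.0821).

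NAD metabolism was covered by 37 tested gene models, 22 with a positive and 15 with a negative difference, 12 higher and 8 lower in both genotypes (32.4% and 21.6%). The median was 0.05 and none was called. Nmrk1, the kinase that takes NR into NAD, stood at 121, 105 and 119 CPM in Tg26 mice given INT-747 against 56.0, 49.8 and 86.1 CPM in Tg26 mice given NR, and at 47.6, 67.0 and 54.3 CPM in WT mice given INT-747 against 50.1, 40.0 and 77.3 CPM in WT mice given NR. It separated in Tg26 mice (log2 0.85) and overlapped in WT mice (0.01; interaction unadjusted p = 0.0397). Nampt, the salvage enzyme for nicotinamide, had 0.08. In the route from tryptophan, Ido2, a dioxygenase of the first step, had 0.58 (0.49 in Tg26 and 0.68 in WT mice, adjusted p = 0.112) and Acmsd, which diverts the route away from NAD, had 0.80 (1.11 in Tg26 and 0.49 in WT mice, adjusted p = 0.125).

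Among nephron and vessel genes, the collecting duct water channels Aqp2 and Aqp3 were lower under INT-747 without overlap within either genotype. Aqp2 stood at 74.5, 55.6 and 49.9 CPM in Tg26 mice given INT-747 against 85.9, 85.2 and 117 CPM in Tg26 mice given NR, and at 47.3, 49.7 and 47.3 CPM in WT mice given INT-747 against 64.8, 65.2 and 61.3 CPM in WT mice given NR. The log2 differences were −0.54 for Aqp2 (adjusted p = 0.0821) and −0.47 for Aqp3 (adjusted p = 0.125). The endothelial genes went both ways, with Kdr, the VEGF receptor, at 0.43, the diaphragm protein Plvap at −0.38 and the transcription factor Sox18 at −0.64. Pparg, the nuclear receptor of fat storage, was low in all mice, at 1.68 to 2.90 CPM under INT-747 and 0.666 to 1.46 CPM under NR, with a log2 difference of 0.96 and no overlap (adjusted p = 0.125).

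Injury and chaperone genes had list medians that differed between the genotypes, which the additive difference does not show. Of 107 tested genes of tubular injury, matrix and immune cells, 94 had a negative additive difference, but 35 were lower in both genotypes (32.7%, against 27.5% of all genes). The median of the tubular injury list was −0.93 in Tg26 and 0.05 in WT mice, and that of the fibrosis and matrix list −0.66 in Tg26 and 0.22 in WT mice. In Tg26 mice alone, 0 genes of the first list and 1 of the second were called (4.38% of all genes). Tg26 mice varied widely: summed macrophage markers spanned 251 to 1806 CPM under NR and 311 to 1121 CPM under INT-747. The part of single mice in these medians was not tested. Heat shock genes had a median of 0.63 in Tg26 and −0.07 in WT mice, and genes of the unfolded protein response 0.61 in Tg26 and −0.02 in WT mice. None of these medians was tested. Over all genes the median was −0.04 in Tg26 and −0.005 in WT mice, so a WT median near 0 carries no direction. The fatty acid oxidation list had −0.29 in Tg26 and −0.33 in WT mice. The mevalonate list had 0.25 in Tg26 and 0.18 in WT mice, and the late cholesterol list 0.40 in Tg26 and 0.08 in WT mice. Androgen-regulated kidney genes had a median of 1.31 in Tg26 and 0.03 in WT mice; the Tg26 mice given NR include the female-pattern library, and its part in that median was not tested.

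**Figure D5:**
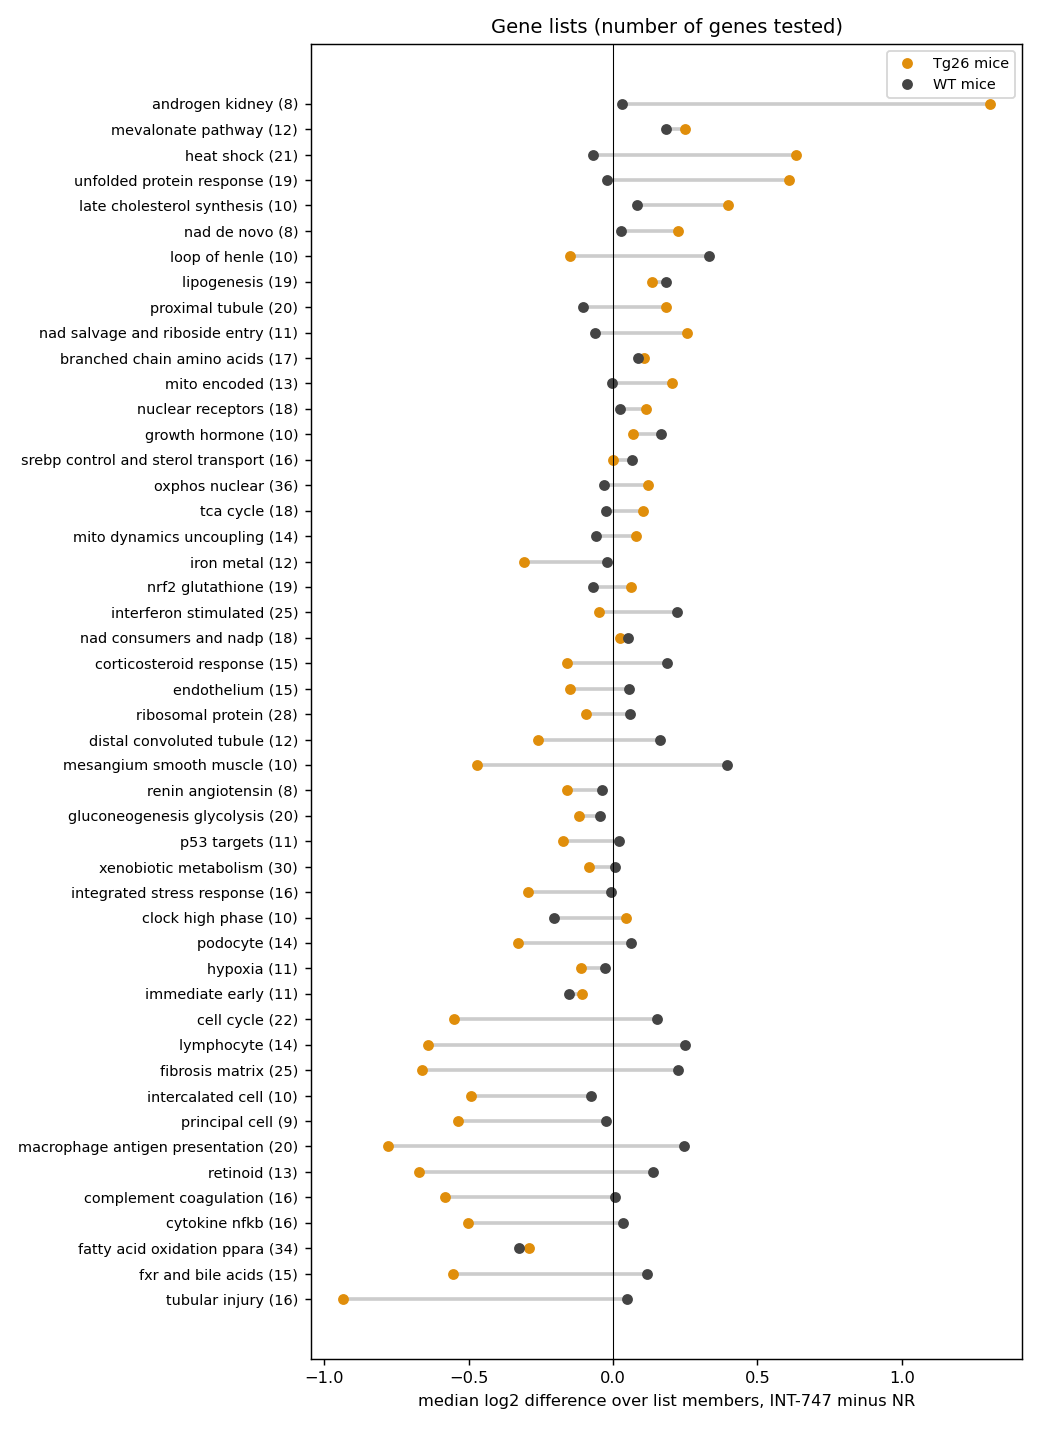
Median log2 difference (positive where higher under INT-747) in Tg26 mice and in WT mice for each list with at least 8 tested genes. The fatty acid oxidation list is below 0 in both genotypes (−0.29 in Tg26 and −0.33 in WT mice). The mevalonate list is above 0 in both (0.25 in Tg26 and 0.18 in WT mice). The late cholesterol list is at 0.40 in Tg26 and 0.08 in WT mice, and the tubular injury list at −0.93 in Tg26 and 0.05 in WT mice.

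The same model gave each genotype its own contrast. In Tg26 mice alone, 688 genes were called (4.38%), 456 higher (2.90%) and 232 lower (1.48%), of which 440 (63.95%) had the same sign in WT mice, as did 49.7% of all genes tested. Of the 440, 69 also had an unadjusted p under 0.05 in WT mice, which 5.01% of all genes had there with either sign in Tg26 mice. In WT mice alone, 2 genes were called (0.0127%). Of the 19 additive calls, 14 were called in Tg26 mice and 1 in WT mice. The contrasts use the same fit and share 1 estimate of the spread per gene. This favours a small p in WT mice for genes called in Tg26 mice, so the 69 are no separate support. The count in Tg26 mice was 0 when only the 6 Tg26 libraries were fitted and 37 with a sex term. A difference between the genotypes in the treatment effect was called for 0 genes with edgeR (2428 with an unadjusted p under 0.05, 15.5%) and for 247 with DESeq2. Among the 19 genes, 4 had an interaction p under 0.05 before adjustment: Akr1c18, Bcat1, Hps5 and Dzip1.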

How the data were processed

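The authors deposited 1 table of RSEM expected counts (estimated counts per gene, not normalized) for 55450 genes and 12 libraries; all values were whole, and the sources used here state neither the rounding rule nor the annotation release. Per the submitters' processing notes, bcl2fastq 2.17, cutadapt 1.18, STAR 2.7.0f, RSEM 1.3.1 and build mm10 were used. All IDs matched GENCODE mouse release M21, the source of coordinates.

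From these counts, genes were filtered with filterByExpr (15708 kept), scaled by TMM and tested with edgeR 4.0.16 (robust quasi-likelihood, R 4.3.3; limma 3.58.1 and DESeq2 1.42.0 as alternatives), INT-747 minus NR with an additive genotype term (9 residual degrees of freedom). A fit with a mean per group (8 degrees of freedom) gave the differences within each genotype and the interaction. CPM use TMM library sizes; levels are compared within a gene. The common biological coefficient of variation was 0.229. Nothing in the labels says whether mice were littermates or processed on separate days; p-values measure the spread between mice.

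The members and the 57 gene lists were chosen with earlier results of these data known. Named were called genes averaging at least 1 on the log2 CPM scale, with equal sign in both genotypes and no predicted-gene name, up to 12 per direction, filled up with the smallest p, and from each list the called members and up to 4 of smallest p. Gm47939, Gm48362, Gm46349, Gm43549 and Mat1a lie outside that rule and were named after their values were seen, as were further list members given as contrasts. Some genes that these rules cover are counted in their lists but not reported here. On simulated counts for the additive difference (15708 genes, 100 changed at each fold), the fit recovered 66% of 2-fold and 89% of 4-fold changes. It called 10 unchanged genes. No label says whether replicate numbers pair the mice. Deviations from group means correlated at −0.237 to 0.236 between same-numbered libraries and −0.361 to 0.438 between others. With 3 mice a group, these wide ranges cannot decide it. Alternatives were RLE scaling, other filters, DESeq2, limma-voom, non-robust fits, other designs, a sex term, a clock covariate, a replicate block and leaving out each library.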

Additional observations from a re-analysis of the deposited data

Results flagged for a closer look

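Each of the 29 named genes was examined for a library standing apart from the other 5 of its treatment, 58 sets of 6 libraries in all, and 3 were outside Dixon's 95% limit; chance places about 1 in 20 sets outside it. Tgtp1, which has a near-identical neighbour, was 4.20 CPM in the third WT mouse given INT-747, below the next lowest value of 6.69 CPM. Cotl1 was 166 CPM in the third Tg26 mouse given NR, the female-pattern library, above the next highest value of 132 CPM. Mat1a was 0.0448 CPM in the first WT mouse given INT-747, which is a single count, and 0 in the other 5 libraries under INT-747. With the other 5 at 0, any single count falls outside the limit.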

How the results depend on the processing

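No direction of a named gene reversed in 723 gene values over the alternatives. In each named gene the treatments did not overlap within either genotype, which made a reversal unlikely from the start. Idi1 and Gm47939 were past the threshold in 25 of 25 alternatives, Akr1c18 in 23, Gm48362 in 22 and the other called genes in 9 to 16. The additive count of 19 calls was 15 to 27 with RLE scaling, other filters, limma-voom, a non-robust fit or without Xist and Y-linked genes. It was 385 with DESeq2, 67 as the mean of the within-genotype differences, 7 without the genotype term, 32 with a sex term, 200 with the clock score and 87 with both. With the replicate block it was 8 (7 of the 19), and no label says whether replicate numbers pair the mice. The block gave 71 calls in Tg26 mice, 2 in WT mice and 0 for the interaction. Calls in Tg26 mice (688) were 2167 with DESeq2, 37 with a sex term and 0 with only the 6 Tg26 libraries; calls in WT mice (2) were 61 with DESeq2 and 5 with a sex term; interaction calls (0) were 247 with DESeq2. Leaving out each library in turn gave 3 to 69 additive calls (69 without the first WT mouse given NR, 33 without the third Tg26 mouse given NR, 3 to 9 without any other), 2 to 5 in WT mice, 0 to 2320 in Tg26 mice, 0 to 174 for the interaction, and 398 to 1088 genes without overlap on the same side in both genotypes (main 318). The last count grows when fewer mice must separate. The cause of the other shifts was not tested. On simulated counts for the additive difference, 6 mice against 6, the fit recovered 66% of 2-fold and 89% of 4-fold changes. There 100 genes changed at each fold, and recovery with fewer changed genes was not simulated.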
